A study of Homo sapiens with 20 samples.

Results

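Interleukins and the related cytokines and receptors expressed by osteosarcoma cells were followed through 10 genes, taken by symbol from a table of 43366 genes. They were IL15, IL15RA, IL7, IL6, IL11, LIF, IL6ST, CSF1, IL18BP and IL32, and all 10 passed the filter on low counts in each comparison. They were measured by RNA-seq of polyA RNA from U2OS, a human osteosarcoma line, in 20 libraries of 5 each: untreated WT clones, WT clones given 250 U/ml IFNγ for 24 h, untreated ZBTB48 KO clones, and ZBTB48 KO clones given the same IFNγ. ZBTB48 is a zinc finger protein that binds the telomeric repeat and some promoters. The design asks how transcription responds to IFNγ and whether the response differs with ZBTB48. In bulk RNA, more cells that express a gene and more of its mRNA in each cell cannot be told apart. Each replicate is 1 clone, so that differences between clones of the same label are part of the spread.

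IFNγ signals through its receptor and JAK kinases to factors that bind GAS elements in promoters, and through IRF1, a factor induced in turn, which binds ISRE elements. Non-haematopoietic cells answer with cytokines of their own. IL-15 is presented on the cell surface by its receptor alpha chain, the product of IL15RA, to T and NK cells that carry the common gamma chain, which IL-7 also uses. IL-6, IL-11 and LIF share the signal transducer gp130, encoded by IL6ST. IL18BP encodes a secreted protein that captures IL-18, the cytokine that makes lymphocytes release IFNγ. CSF1 encodes the growth factor of macrophages and osteoclasts, and IL-32 is a pro-inflammatory cytokine. LIF, IL-6 and IL-11 also act on bone cells.

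Total counts ranged from 46652288 to 72952859 a library, and levels are in CPM, the counts of a gene relative to the TMM-scaled library size, where 3 counts, taken as the floor, are 0.0404 to 0.0610 CPM. The response to the agent was seen in the label checks GBP1 and IRF1, whose log2 fold changes were 8.73 and 4.96 in WT clones and 9.89 and 4.72 with the KO label. ZBTB48 itself had 8.03 to 9.44 CPM in untreated WT clones and 1.29 to 4.06 CPM in 4 of the untreated KO-labelled libraries, but 11.3 CPM in KO replicate 3. After IFNγ it had 8.81 to 11.6 CPM in WT clones, 1.69 to 5.27 CPM in 4 KO-labelled ones and 15.8 CPM in KO replicate 3. In that clone ZBTB48 mRNA thus lay above the WT range under both conditions, and values are given without this clone where a result turns on it. An mRNA level does not tell whether the protein is lost, and protein was not measured in these libraries. By Western blot after IFNγ, the study reports little or no CIITA, HLA-DMB and CD74 protein in all its KO clones. These are products of genes that it places downstream of ZBTB48, not ZBTB48 itself. Summed markers of mesenchymal and osteoblast cells lay between 2878 and 10685 CPM over 8 genes. Most of that sum came from COL1A1, SPARC and VIM, each above 285 CPM in every library, while RUNX2 had 18.4 to 92.0 CPM. SP7 and TWIST1, which mark the osteoblast and mesenchymal lineages, did not exceed 0.0708 and 0.0652 CPM, close to the floor, and COL1A2 did not exceed 0.945 CPM. Those of leukocytes, a possible source of cytokine mRNA, summed to between 0.478 and 2.63 CPM over 7 genes.

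Promoters of 6 of the 10 genes were found in RefSeq windows of GRCh38.p14, running from 250 bases before to 50 after a start site, 13 windows in all. The GAS letters TTCNNNGAA were found in 2 of them, against 7.66% of 35116 windows of all genes, and the ISRE core, a pair of GAAA tetranucleotides separated by any 2 bases, in 1, against 3.57% of all, with both strands searched. The telomeric repeat TTAGGG was in 3 of the 13, all of IL18BP, against 9.05% of all, with the windows overlapping at 1 of these sites. Both windows with a GAS match belong to genes with the largest log2 fold changes among the 10, and they are shown for that reason, 5′ to 3′ on the strand of the gene and with the motif letters in capitals. The IL18BP window is chr11:71999367-71999666 on the plus strand, with an ISRE match from -67 to -58 and GAS matches from -37 to -29 and from -7 to 1, counted from the start base as 0. The IL15RA window is chr10:5977997-5978296 on the minus strand, with a GAS match from -127 to -119. IL18BP and IL15RA also have more windows than any other of the 10 genes, and so more room for a match. A match describes letters, and binding was not measured. A link between matches and the size of a change was not tested.
IL18BP: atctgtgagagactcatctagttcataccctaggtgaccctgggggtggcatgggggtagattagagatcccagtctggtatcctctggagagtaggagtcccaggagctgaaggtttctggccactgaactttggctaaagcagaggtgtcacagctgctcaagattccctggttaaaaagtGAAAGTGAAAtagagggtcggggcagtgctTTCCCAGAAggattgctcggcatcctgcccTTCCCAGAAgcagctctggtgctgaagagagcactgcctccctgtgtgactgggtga
IL15RA: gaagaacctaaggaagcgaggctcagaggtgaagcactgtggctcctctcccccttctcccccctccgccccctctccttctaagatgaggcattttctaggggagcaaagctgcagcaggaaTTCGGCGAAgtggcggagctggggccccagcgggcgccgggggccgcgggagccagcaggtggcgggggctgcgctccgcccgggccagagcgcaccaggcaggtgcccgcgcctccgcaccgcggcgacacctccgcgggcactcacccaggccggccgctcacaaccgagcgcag

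After IFNγ, 6 of the 10 genes rose in the WT clones (IL15RA, IL18BP, IL32, IL15, CSF1 and IL11) and 5 rose in the libraries labelled KO (IL15RA, IL18BP, IL7, IL6 and CSF1), and none fell. A gene was called when edgeR's quasi-likelihood test gave an adjusted p under 0.01 and the change was more than 2-fold. Of all genes tested, 2.48% were called higher and 0.512% lower in the WT clones, and 1.7% higher and 0.258% lower under the KO label. The median log2 fold change of the 10 genes was 1.99 for the WT label and 2.03 for the KO label, beside -0.03 over all genes in each comparison. The 10 genes were chosen with earlier results of these data known, so their values beside those of all genes are a description and not a test. IL15RA, IL18BP and CSF1 were called in both, and 8 genes in at least 1. DESeq2 called 8 of the 10 in WT clones, beside 3.63% of all genes called higher, and 7 under the KO label, beside 3.13%. A replicate block of the clone number gave 8 and 7 as well, beside 4.44% and 2.71%, and in both of these fits IL15 was the 1 gene called in WT clones alone. Fewer of the 10 passed with a clone left out. The count under the KO label was 1 (IL18BP) without KO replicate 3, the clone whose ZBTB48 mRNA lay above the WT range, beside 147 of 19371 genes called higher. It was also 1 without replicate 1, 4 or 5, beside 160, 123 and 137 genes called higher. Without replicate 2 it was 4, beside 403, where all clones gave 329. With the block it was 2, beside 239 of 19633, when replicates 4 and 5, whose pairing is doubtful, were left out. In WT clones the count was 3 without replicate 2, beside 284 of 19606, where all clones gave 485. In the WT clones 9 genes had every treated library above every untreated one, all but IL6ST, which was so for 6.68% of all genes. In the libraries labelled KO this held for 5, against 6.07% of all.

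The largest rise was that of IL15RA (chromosome 10, 5948900 to 5978741, minus strand). In untreated WT clones 1 to 5 it had 0.250, 0.0529, 0.325, 0.685 and 0.124 CPM, which are 3 to 42 counts, and in untreated libraries labelled KO 1.45, 0, 1.30, 0.287 and 0.218 CPM. After IFNγ the WT clones had 40.6, 29.1, 39.5, 30.7 and 24.3 CPM, and those labelled KO 38.7, 14.9, 49.0, 41.1 and 32.7 CPM. The receptor mRNA thus went from near the floor, or at most 1.45 CPM, to at least 14.9 CPM in each of the 10 clones, with no overlap between treated and untreated libraries. Its log2 fold change was 6.83 (SE 0.52, edgeR adjusted p = 1.18e-05) in WT clones and 5.75 (SE 0.84, edgeR adjusted p = 0.00230) in libraries labelled KO. The size of these folds rests on few untreated counts, and with the shrunken fold changes of DESeq2, which the study's methods name, the log2 values were 4.15 and 1.26, both called. With any of KO replicates 1, 3, 4 or 5 left out the second call was lost, at an adjusted p of 0.0140 to 0.0259 and a log2 fold change of 5.49 to 6.25, and without the filter on low counts the adjusted p was 0.0122.

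IL15, the ligand that this receptor presents (chromosome 4, 141636583 to 141733987, plus strand), started from levels that differed widely between clones. Untreated WT clones 1 to 5 had 1.60, 2.06, 2.11, 4.61 and 1.15 CPM, and untreated libraries labelled KO had 2.704, 0.405, 4.51, 2.13 and 9.08 CPM. Treated WT clones had 6.85, 10.4, 11.3, 8.71 and 8.68 CPM, and treated libraries labelled KO 8.55, 9.15, 8.43, 13.7 and 10.2 CPM. Untreated KO replicate 5 stood above 2 treated libraries of its label, while KO replicate 2 was the lowest of all 20, and after IFNγ the 10 clones lay within 6.85 to 13.7 CPM. The log2 fold change was 2.01 (SE 0.34, edgeR adjusted p = 0.00333) in WT clones. For the KO label it was 1.41 (SE 0.58, edgeR adjusted p = 0.171) and was not called with any of 12 alternatives, where the adjusted p lay between 0.0550 and 0.431. The difference between the 2 responses was 0.58 (95% interval -0.88 to 2.04), so that a call in WT clones alone is not a difference between genotypes. The WT call itself was lost with all 20 libraries fitted together (adjusted p = 0.0171) and when WT replicate 1, 2, 3 or 5 was left out (0.0128 to 0.0309).

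IL7 (chromosome 8, 78675044 to 78805463, minus strand), a survival factor of lymphocytes, had 0.177 to 1.93 CPM in untreated and 2.69 to 7.28 CPM in treated WT clones. Among KO-labelled libraries it had 0.486 to 2.44 CPM untreated and 4.62 to 7.34 CPM treated. The groups did not overlap under either label, and WT replicate 5 was the lowest WT clone both untreated and treated. The log2 fold changes were close, at 2.02 (SE 0.50, edgeR adjusted p = 0.0234) and 2.03 (SE 0.36, edgeR adjusted p = 0.00727), although only the second was called. The first was called too with the replicate block, which pairs the libraries of a clone (log2 fold change 2.15, adjusted p = 2.68e-04), with DESeq2 (2.65e-04), with all 20 libraries in 1 fit (0.00721) and without WT replicate 5 (log2 fold change 1.92, adjusted p = 0.00197), and without any of KO replicates 1, 3, 4 or 5 the second was lost (adjusted p 0.0161 to 0.0481). Exons of IL7 share 551 bases with LOC105375914 on the opposite strand, which went from between 0.0607 and 0.752 CPM in untreated to between 1.33 and 6.96 CPM in treated libraries, and 309 bases with ZC2HC1A. Since the strand setting of the counting was not given in the sources used here, reads of such pairs cannot be told apart.

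Of the gp130 ligands IL6, IL11 and LIF, IL6 had the lowest levels in every group. IL6 (chromosome 7, 22727200 to 22731998, plus strand) had 0.533, 0.459, 0.772, 0.620 and 0.584 CPM in untreated WT clones 1 to 5 and 1.61, 1.33, 1.18, 5.15 and 2.18 CPM after IFNγ. In libraries labelled KO it had 0.657, 0.445, 0.724, 0.371 and 0.574 CPM untreated and 1.76, 1.48, 3.74, 1.17 and 3.17 CPM treated. Every treated library exceeded every untreated one, and treated WT replicate 4 stood highest of the 20. The log2 fold changes were 1.96 (SE 0.42, edgeR adjusted p = 0.0118) in WT clones and 2.02 (SE 0.38, edgeR adjusted p = 0.00917) in libraries labelled KO, on either side of the cut-off. Leaving out any 1 of the 5 clones labelled KO ended that call (adjusted p 0.0154 to 0.0555), and 5 alternatives called IL6 in WT clones. Untreated IL6 rests on 22 to 44 counts a library. Its exons share 53 bases with IL6-AS1 on the opposite strand, which had 0.101 to 0.792 CPM untreated and 0.234 to 1.13 CPM treated, so that the limit on strand given for IL7 holds here too.

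IL11 (chromosome 19, 55364382 to 55370463, minus strand), a cytokine known to act on osteoblasts and osteoclasts, had 11.7, 11.01, 12.2, 6.34 and 8.57 CPM in untreated and 41.8, 24.1, 26.2, 19.5 and 31.2 CPM in treated WT clones. Untreated libraries labelled KO had 8.23, 4.74, 15.4, 9.63 and 11.2 CPM, and treated ones 38.0, 6.64, 131, 33.8 and 42.6 CPM. The clones labelled KO thus parted after IFNγ, with replicate 2 below 4 of the untreated libraries of its label and replicate 3 far above all others. In WT clones IL11 rose, with a log2 fold change of 1.54 (SE 0.24, edgeR adjusted p = 0.00187), a call lost without WT replicate 2 (adjusted p = 0.0125), without WT replicate 5 (0.0144) and with all 20 libraries in 1 fit (0.0598). Under the KO label it was 2.36 (SE 0.62, edgeR adjusted p = 0.0406), or 1.84 (SE 0.52, edgeR adjusted p = 0.104) without KO replicate 3. DESeq2 (adjusted p = 5.06e-04), the replicate block (0.00725) and the fit of all 20 libraries (0.00422) called it with all clones kept, and its shrunken DESeq2 log2 fold change was 1.30. The block no longer called IL11 when KO replicates 4 and 5, whose pairing is doubtful, were left out.

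LIF (chromosome 22, 30240453 to 30246759, minus strand), named for its inhibition of leukaemia cell growth, had 32.7 to 87.2 CPM in untreated and 90.8 to 169 CPM in treated WT clones, without overlap. Its exons share 550 bases with LIF-AS2 and 86 with LIF-AS1 on the opposite strand, which had at most 2.31 and 0.681 CPM. For the KO label it had 53.3 to 86.0 CPM untreated and 49.9 to 239.8 CPM treated, and these ranges overlap. Its log2 fold changes of 0.96 (SE 0.26, edgeR adjusted p = 0.0335) and 0.95 (SE 0.33, edgeR adjusted p = 0.109) did not pass. IL6ST (chromosome 5, 55935095 to 55994963, minus strand), the shared transducer, had 205 to 262 CPM in untreated and 242 to 343 CPM in treated WT clones. It had 162 to 299.5 CPM in untreated and 237 to 569.7 CPM in treated libraries labelled KO. Its log2 fold changes were 0.35 (SE 0.11, edgeR adjusted p = 0.0693) and 0.53 (SE 0.25, edgeR adjusted p = 0.234), the smallest of the 10 genes under each label. No alternative at the same cut-offs called LIF or IL6ST. In WT clones the 95% interval of the IL6ST change, 0.10 to 0.59, lay wholly under a doubling, while that of LIF, 0.40 to 1.53, reached past it.

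CSF1 (chromosome 1, 109910506 to 109930992, plus strand) had 45.1, 25.2, 34.3, 20.04 and 17.6 CPM in untreated and 150.5, 116, 122, 101 and 66.0 CPM in treated WT clones. In libraries labelled KO it had 33.5, 11.2, 36.0, 30.8 and 36.0 CPM untreated and 83.7, 85.4, 90.9, 138 and 104 CPM treated. All treated libraries lay above all untreated ones, and untreated KO replicate 2 lay below the rest. The log2 fold changes were 1.98 (SE 0.29, edgeR adjusted p = 0.00122) and 1.77 (SE 0.29, edgeR adjusted p = 0.00450), or 3.94-fold and 3.40-fold. The WT call was lost without WT replicate 2 (adjusted p = 0.0143) or 4 (0.0101), and the KO call without replicate 1, 3, 4 or 5 (0.0256 to 0.0380).

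IL18BP (chromosome 11, 71998909 to 72008200, plus strand), whose promoter window holds the ISRE and GAS letters shown above, was the 1 gene of the 10 called under every alternative for both labels. Untreated WT clones 1 to 5 had 7.49, 5.19, 6.68, 8.40 and 4.41 CPM and treated ones 125, 115, 158, 192 and 90.4 CPM. Untreated libraries labelled KO had 4.81, 11.3, 5.51, 6.53 and 5.94 CPM and treated ones 105, 120.4, 125, 108 and 93.5 CPM. Treated and untreated libraries lay far apart in each clone, and untreated KO replicate 2 was the highest untreated one. The log2 fold changes were 4.41 (SE 0.26, edgeR adjusted p = 1.42e-06) and 4.01 (SE 0.24, edgeR adjusted p = 3.01e-06). Over the 11 alternatives for WT clones its log2 fold change lay between 3.76 and 4.51, and over the 12 for the KO label between 3.50 and 4.24. Its exons share 586 bases with NUMA1 on the opposite strand, which had 87.0 to 144 CPM in untreated and 90.5 to 139.7 CPM in treated libraries.

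IL32 (chromosome 16, 3065403 to 3069530, plus strand) had 9.84, 9.63, 7.84, 15.7 and 3.52 CPM in untreated and 109.7, 84.7, 93.3, 103 and 33.0 CPM in treated WT clones. With the KO label it had 10.8, 2.57, 37.3, 6.01 and 11.7 CPM untreated and 120.3, 45.0, 298, 63.7 and 31.5 CPM treated. KO replicate 3 was highest under both conditions, and its untreated level exceeded that of treated KO replicate 5. The log2 fold change was 3.20 (SE 0.41, edgeR adjusted p = 5.15e-04) in WT clones, called in all 11 alternatives. Under the KO label it was 3.03 (SE 0.79, edgeR adjusted p = 0.0393), and 3.07 (SE 0.56, edgeR adjusted p = 0.0233) without KO replicate 3. DESeq2 (adjusted p = 0.00233), the replicate block (0.00232) and the fit of all 20 libraries (0.00582) called it, with a shrunken DESeq2 log2 fold change of 1.09.

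**Figure D1:**
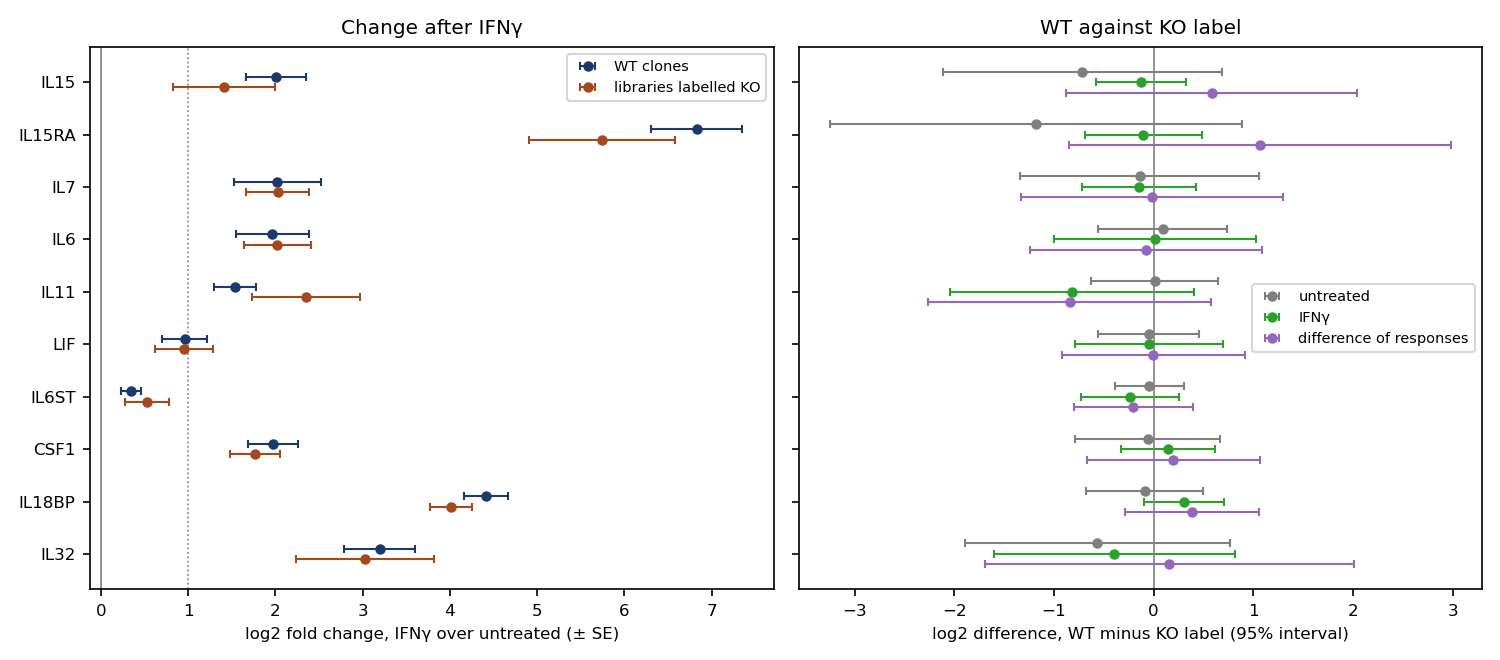
Left, log2 fold change of each gene after IFNγ with its SE for each label, with a dotted line at 2-fold; right, log2 difference between WT and KO labels with its 95% interval in untreated libraries, in treated libraries and between the 2 responses. All 20 changes on the left are above 0, and all 30 intervals on the right include 0.

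Followed within clones, on the log2(CPM + 0.1) scale, all 10 genes were higher after IFNγ in each of the 5 WT clones, and 9 of 10 in each of the 5 clones labelled KO. The exception was LIF, which changed by -0.09 in KO replicate 2 and by 0.57 to 1.48 in the other 4. Of all genes tested, 22.1% were higher after treatment in all 5 WT clones, 16% in all 5 clones labelled KO and 13.1% in all 10. IL18BP responded on average by 4.37 ± 0.20 among the WT clones and by 4.05 ± 0.43 among those labelled KO (SD, n = 5 each). For IL32 these means were 3.21 ± 0.34 and 3.07 ± 1.00 (SD, n = 5 each). IL15 varied most among clones labelled KO, at 1.90 ± 1.57 (SD, n = 5), from 4.20 in replicate 2, which had the least IL15 before treatment, to 0.17 in replicate 5, which had the most. For KO replicates 4 and 5 the pairing is doubtful, since their treated libraries resembled the untreated library of the other number. A mean over KO replicates 1 to 3 was 2.24 for IL15, 3.51 for IL32 and 4.10 for IL18BP. Flipping the signs of the 5 responses (exact permutation, two-sided) gave the smallest p that 5 pairs allow, which is above 0.05, for every gene and label but LIF in clones labelled KO (exact p = 0.125).

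No difference between WT and KO labels was detected for the 10 genes, in comparisons that use the same 20 libraries as those above. In untreated libraries their log2 fold changes ran from -1.18 (IL15RA, 95% interval -3.25 to 0.89) to 0.09 (IL6, -0.56 to 0.73), with edgeR adjusted p of 0.980 to 0.999. In treated libraries they ran from -0.82 (IL11, 95% interval -2.05 to 0.41) to 0.30 (IL18BP, -0.10 to 0.71), with edgeR adjusted p of 0.996 to 0.999. The difference between the responses ran from -0.84 (IL11, -2.26 to 0.58) to 1.07 (IL15RA, -0.84 to 2.98), with edgeR adjusted p of 1.00. In none of the 3 comparisons did any of the 10 genes reach an unadjusted p under 0.05 with edgeR, and DESeq2 called 0 as well. The share of all genes called was 0.0154% in untreated and 0.0155% in treated libraries with edgeR, 0.0615% and 0.0825% with DESeq2, and 0% for the responses with either. Two-sided exact permutation tests of WT against KO labels gave p of 0.532 to 0.976 in untreated and 0.246 to 0.960 in treated libraries, and every pair of groups overlapped, where 1% and 0.805% of all genes had groups that did not.

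The intervals show what could be told. A 2-fold difference lay outside the 95% interval of 6 of the 10 genes in untreated libraries, of 7 in treated ones and of 2 (IL6ST and LIF) for the responses. The fit for the responses had no term for the clone, so its intervals do not use the pairing of treated with untreated libraries. For IL6ST, for example, the intervals between labels were -0.39 to 0.30 in untreated and -0.73 to 0.26 in treated libraries. For treated IL15 the interval was -0.57 to 0.32. In untreated libraries the intervals were widest for IL15RA, IL15 (-2.12 to 0.68) and IL32 (-1.89 to 0.76), where a 2-fold or larger difference could not be told from none. The IL11 value in treated libraries depended on single clones. Without KO replicate 3 it was -0.09 (SE 0.43, edgeR adjusted p = 0.997). Without that clone, IL32 turned from -0.56 to 0.25 in untreated and from -0.39 to 0.38 in treated libraries, and again did not pass. Without KO replicate 2 the treated IL11 difference was -1.10 (95% interval -1.98 to -0.23, edgeR adjusted p = 0.744) and without WT replicate 5 that of IL18BP was 0.42 (95% interval 0.05 to 0.78, edgeR adjusted p = 1.00), the only fits of the 10 genes, over all alternatives of these comparisons, with an unadjusted p under 0.05. KO replicate 3 had the highest level of its group for 8 of the 10 genes after IFNγ and for 6 before, and KO replicate 2 the lowest for 4 and 7. WT replicate 5 was lowest of the WT clones for 6 genes after IFNγ and for 5 before.

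The clones grew more alike after IFNγ in some of these genes and less alike in others. The SD of log2(CPM + 0.1) over 5 clones fell for IL15 from 0.71 to 0.28 in WT clones and from 1.55 to 0.29 in clones labelled KO. It fell for IL15RA from 0.90 to 0.31 and from 1.64 to 0.67, where few untreated counts widen the first value, and for IL7 from 1.18 to 0.52 and from 0.78 to 0.24. It rose for IL6 from 0.24 to 0.81 in WT clones and from 0.33 to 0.69 in clones labelled KO. For LIF it fell in WT clones from 0.56 to 0.37 and rose in clones labelled KO from 0.25 to 0.83, and for IL11 it rose from 0.39 to 0.41 and from 0.62 to 1.53. In each genotype 6 of the 10 SDs were smaller after treatment, while the median over all genes went from 0.36 to 0.36 in WT clones and from 0.36 to 0.42 in clones labelled KO. The change in IL15 was as low or lower in 2.97% of all genes in WT clones and in 0.0618% in clones labelled KO. For IL7 these shares were 0.618% and 1.25%, and for IL15RA 1.05% and 0.171%. For IL6, whose SD rose, they were 99.1% and 92.2%. The lowest untreated libraries had few counts, with 20 for IL15 in KO replicate 2 and 10 for IL7 in WT replicate 5. These SDs are a description of 5 clones each and were not tested.

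Whether genes of a shared role varied together among clones was examined over 10 clones after removing the mean of each genotype, for 4 pairs in untreated and in treated libraries, 8 correlations in all. IL11 and LIF gave Pearson's r = 0.92 in treated libraries (exact permutation within genotypes, p = 0.00750, adjusted 0.0519) and Spearman's rho = 0.87 (exact permutation p = 0.00451, adjusted 0.0361). In untreated libraries r was 0.66 (exact permutation p = 0.0130, adjusted 0.0519) and rho 0.45 (exact permutation p = 0.201, adjusted 0.409). With the 2 clones farthest from the median of IL11 left out r was 0.58 and 0.23, so that much of the relation rests on those clones, and without KO replicate 3 alone it was 0.87 and 0.61. For IL6 no correlation passed, with r of 0.31 and 0.32 in treated libraries for LIF and IL11 (exact permutation p = 0.396 and 0.407, adjusted 0.543 each). Within the genotypes these differed in sign. For LIF r was -0.31 in treated WT clones and 0.69 in treated clones labelled KO, and for IL11 -0.49 and 0.68, which were not tested. IL15 and its receptor gave r of 0.60 in untreated and 0.05 in treated libraries (exact permutation p = 0.151 and 0.891, adjusted 0.403 and 0.891). The labels name no batch within which these could be recomputed.

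**Figure D2:**
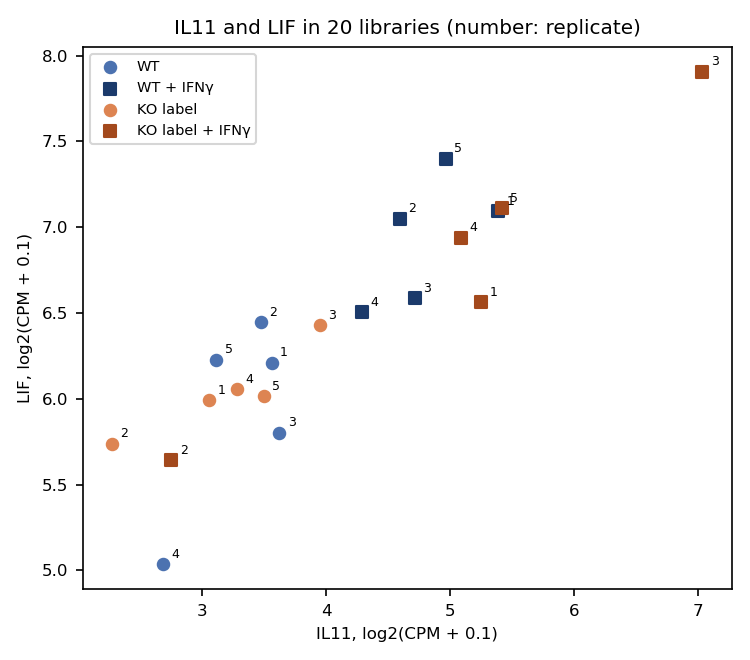
LIF against IL11 in 20 libraries on log2(CPM + 0.1) axes, with the replicate number beside each point. Treated KO replicate 3 is at the upper right, with 131 CPM of IL11 and 239.8 CPM of LIF, and treated KO replicate 2 lies among the untreated libraries.

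Per length, as RPKM (CPM divided by the exon length in kilobases), the order of the genes changed with IFNγ. In untreated WT clones IL6ST led at 23.2 ± 2.07 RPKM (SD, n = 5), followed by LIF at 14.8 ± 4.84, IL32 at 7.22 ± 3.40, CSF1 at 5.92 ± 2.35 and IL11 at 4.19 ± 1.04. Below these came IL18BP at 1.16 ± 0.29, IL15 at 0.817 ± 0.477, IL6 at 0.224 ± 0.044, IL7 at 0.216 ± 0.117 and IL15RA at 0.0839 ± 0.0719 RPKM. Neighbours in this order overlapped except IL6ST over LIF, IL11 over IL18BP and IL15 over IL6. In treated WT clones IL32 stood first at 65.7 ± 23.6 RPKM, ahead of IL6ST at 29.2 ± 3.74, LIF at 28.5 ± 7.32, IL18BP at 24.4 ± 7.09 and CSF1 at 23.1 ± 6.44, all of which overlapped their neighbours. IL15RA, last before treatment, was 7th at 9.58 ± 2.04 RPKM, above IL15 at 3.26 ± 0.61. In libraries labelled KO, IL32 was again first after IFNγ, at 86.7 ± 85.0 RPKM, with overlap with IL6ST at 34.4 ± 13.7 RPKM (SD, n = 5), and IL6ST was first before it, at 23.7 ± 5.54 RPKM. Without KO replicate 3, an alternative chosen after the data had been seen, treated IL32 was at 50.5 ± 30.3 RPKM (SD, n = 4) and still ranked first.

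Relatives of these genes were read from 5 lists, also chosen with earlier results of these data known. Among the tested relatives in the gamma-chain list, 1 of 9 was called higher in WT clones, TSLP, with a log2 fold change of 2.23 (SE 0.22, edgeR adjusted p = 7.53e-05). TSLP is an epithelial cytokine related to IL-7 that does not itself use the common gamma chain. With the KO label 0 of 9 were called by edgeR, with 2 at an unadjusted p under 0.05, and TSLP had 2.97 (SE 0.63, edgeR adjusted p = 0.0161), a call that DESeq2 made. Of 11 further genes of the IL-6 family, 0 were called in WT clones by edgeR, with 2 at an unadjusted p under 0.05, or by DESeq2, and 1 was called lower in libraries labelled KO. That gene was CNTFR, the receptor subunit of ciliary neurotrophic factor, which changed by -1.51 there (SE 0.27, edgeR adjusted p = 0.00784) and by -1.04 (SE 0.41, edgeR adjusted p = 0.139) in WT clones.

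Of 7 tested genes of the IL-1 and IL-18 families, IL18R1, a receptor chain for IL-18, was called in WT clones (log2 fold change 2.06, SE 0.41, edgeR adjusted p = 0.00797), while in libraries labelled KO it had 2.03 (SE 0.45, edgeR adjusted p = 0.0194). FLT3LG, a growth factor of dendritic cell precursors, was the 1 called of 5 in the colony-stimulating factor list under each label, at 2.47 (SE 0.20, edgeR adjusted p = 2.01e-05) and 2.39 (SE 0.38, edgeR adjusted p = 0.00376). Among 19 other interleukins and receptors 4 were called in WT clones. IL12RB1, a chain of the IL-12 and IL-23 receptors, went from 0 to 0.0813 CPM untreated, which is 0 to 4 counts, to 8.83 to 24.4 CPM, and in libraries labelled KO, where it was the 1 called, from 0 to 0.0966 CPM to 3.65 to 17.8 CPM. IL10RA, IL12A and IL23A were called in WT clones with log2 fold changes of 2.75, 2.43 and 1.54 from levels under 1 CPM, and had 2.52, 2.03 and 1.51 in libraries labelled KO (edgeR adjusted p of 0.0129, 0.0158 and 0.0190). Over the 5 lists, edgeR called 7 of 51 tested relatives in WT clones, all higher, beside 2.48% of all genes called higher. Under the KO label it called 3 of 50, of which 2 were higher, beside 1.7%. DESeq2 called 9 under each label, all higher in WT clones and 7 higher under the KO label, beside 3.63% and 3.13% of all genes called higher. Without KO replicate 3 edgeR called only IL12RB1 under the KO label, beside 147 of 19371 genes called higher. Between WT and KO labels edgeR and DESeq2 called 0 of 49 relatives in untreated and in treated libraries, with 2 and 1 at an unadjusted p under 0.05 in edgeR, and 0 of 55 for the responses, with 0 at that p.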

How the data were processed

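Libraries of polyA RNA were made with a stranded mRNA kit from 5 WT and 5 ZBTB48 KO clones of U2OS, untreated or with IFNγ. The authors aligned reads to GRCh38 with STAR 2.7.9a, retained reads mapping to 1 place and assigned them to RefSeq genes by featureCounts (version 2.4.0 in the submitters' processing notes), and deposited raw counts. The strand setting is not given in the sources used here. All 20 columns were matched to samples, and 0 rows lacked a gene name. No 2 libraries of the same group agreed within sampling noise, and libraries of different groups were not compared in this way.

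Counts were tested with edgeR 4.0.16 (R 4.3.3): TMM, filterByExpr and the robust quasi-likelihood test on the 10 libraries compared, with Benjamini-Hochberg adjustment over all genes tested, and all 20 libraries for the difference between responses. Cut-offs are those that the study used between WT and KO clones. For IFNγ against untreated clones its figures marked genes at a far larger fold cut-off, which was not used here. The study's methods name DESeq2 with normal shrinkage, run as an alternative (DESeq2 1.42.0). Alternatives were DESeq2's size factors, no filter, DESeq2 with and without shrinkage, 20 libraries in 1 fit, a replicate block, an adjusted p of 0.05 without a fold cut-off, leaving out each clone, and 1 CPM in place of 0.1 CPM as the pseudocount. Single values were compared by exact permutation tests (Python 3.11.15, scipy 1.17.1), where 252 permutations of 5 against 5 give no p below 0.00794. Positive values mean higher after IFNγ or in WT clones. The edgeR and DESeq2 steps were tested on simulated data.

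Clone labels pair treated with untreated libraries. Deviations from group means, over 21052 genes, correlated at 0.63 to 0.80 within WT clones and at 0.65, 0.79 and 0.60 within KO replicates 1 to 3, but at -0.02 and 0.05 in KO replicates 4 and 5, each of which correlated best with the other's number. Numbers did not pair WT with KO clones. The 10 genes and the lists of relatives and markers were chosen with earlier results of these data known. All 10 genes are named, with at most 4 called genes of each list of relatives, the markers and the label checks, of which 2 genes are not reported here. Depth limits genes near the floor, which covers counting error only.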

Additional observations from a re-analysis of the deposited data

Results flagged for a closer look

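In 6 of 40 groups of 5 libraries the highest or the lowest library stood apart from the other 4 by Dixon's test on CPM. Chance would give about 1 in 20, or 2, if the groups were independent and their values normally distributed. The 40 groups share the same 20 libraries, and CPM was not taken to the log scale used for the SDs. The 6 thus cannot be read as an excess over chance, and the libraries that stood apart are listed as a description on the CPM scale. In WT clones these were untreated IL15 in replicate 4, at 4.61 CPM beside 2.11 CPM for the nearest, and treated IL6 in replicate 4, at 5.15 beside 2.18 CPM. In untreated libraries labelled KO, replicate 2 was lowest for CSF1, at 11.2 beside 30.8 CPM, and highest for IL18BP, at 11.3 beside 6.53 CPM, and replicate 3 was highest for IL32, at 37.3 beside 11.7 CPM. In treated libraries labelled KO, replicate 3 was highest for IL11, at 131 beside 42.6 CPM. KO replicate 3 is the clone whose ZBTB48 mRNA lay above the WT range, and the part of that in these values was not tested. The log2 fold change of IL6 in WT clones was 1.44 to 2.24 with each clone left out in turn.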

How the results depend on the processing

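Depth limits untreated IL15RA, IL7 and IL6, which rest on few counts. In WT clones 6 of the 10 genes were called, and 3 to 5 with 1 clone left out, the 3 without WT replicate 2. In libraries labelled KO 5 were called, and 1 to 4 with 1 clone left out: IL18BP alone without replicate 1, 3, 4 or 5. Over all genes, the number called higher with 1 clone left out ran from 284 to 393 in WT clones, beside 485 with every clone kept. Under the KO label it ran from 123 to 403, beside 329. Fits with a clone left out hold fewer libraries, and the cause was not tested. The replicate block, which pairs the libraries of a clone, gave 8 and 7, and 2 (IL18BP and IL32) when the doubtful pairs, KO replicates 4 and 5, were left out. An adjusted p under 0.05 with no fold cut-off gave 9 and 7. At that cut-off 1363 of 19522 genes tested were higher in WT clones and 1049 of 19385 under the KO label. With the shrunken fold changes of DESeq2, log2 fold changes over 1.5 times smaller were 4.15 (IL15RA), 1.24 (IL7) and 1.29 (IL6) in WT clones and 1.26 (IL15RA), 1.09 (IL32), 1.30 (IL11) and 0.80 (IL15) under the KO label. Between WT and KO labels, and between the responses, 0 genes were called under every alternative.

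None of the differences below passed the test, and each changed sign. With the replicate block the treated difference was -0.11 for IL6 and 0.098 for LIF. Between labels that block pairs unrelated clones by number alone, so these values rest on an arbitrary pairing. With a block by clone the difference between responses was 0.047 for IL7 and 0.19 for LIF. Without KO replicates 4 and 5 the blocked difference between responses was 0.34 for LIF and -0.25 for IL32. For LIF it was 0.0068 with DESeq2's size factors, 0.0067 with DESeq2 and 0.017 without the filter, and for IL7 0.012 without the filter. With 1 clone left out in turn, the untreated differences ranged from -0.30 to 0.071 for CSF1, -0.17 to 0.23 for IL11, -0.21 to 0.16 for IL18BP, -0.84 to 0.25 for IL32, -0.023 to 0.20 for IL6, -0.15 to 0.057 for IL6ST, -0.36 to 0.15 for IL7 and -0.18 to 0.12 for LIF. The treated differences ranged from -0.21 to 0.019 for IL15, -0.30 to 0.042 for IL15RA, -0.63 to 0.38 for IL32, -0.52 to 0.27 for IL6, -0.34 to 0.025 for IL6ST, -0.30 to 0.015 for IL7 and -0.25 to 0.30 for LIF. The differences between responses ranged from -0.035 to 1.01 for IL15, -0.026 to 0.35 for IL32, -0.60 to 0.21 for IL6, -0.21 to 0.18 for IL7 and -0.14 to 0.24 for LIF. With 1 CPM added in place of 0.1 CPM, the within-clone response of IL15RA was 4.71 in WT clones and 4.46 in clones labelled KO, and that of IL6 1.01 in clones labelled KO.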
